A study of Mus musculus with 50 samples.

Results

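The 8 genes described here, Chrna3, Chrna4, Chrna5, Chrna6, Chrna7, Chrnb2, Chrnb3 and Chrnb4, encode subunits of the nicotinic acetylcholine receptors of neurons. They were chosen by gene symbol from the 24552 genes that both deposited count tables list. The tables hold RNA sequencing of the nucleus accumbens (NAc) of RiboTag (RT) mice, whose ribosomal protein Rpl22 carries an HA tag in cells that make Cre recombinase. An antibody against HA precipitates the tagged ribosomes with their mRNA (IP), and RNA of the same homogenate before precipitation serves as input. The study compared D1-MSNs with D2-MSNs, the medium spiny neurons that carry dopamine receptor D1 or D2, after chronic social defeat. Libraries of D1-MSNs with a Sirt1 knockout were deposited beside them.

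The D1 libraries came from RT; D1-Cre mice and the D2 libraries from RT; D2-Cre mice, both on a C57BL/6 background and 8 to 12 weeks of age. Cre is driven by bacterial artificial chromosomes with the Drd1 gene (line FK150) or the Drd2 gene (line ER44), so any cell that uses that transgene is tagged, whether or not it is an MSN. Stressed mice met CD1 aggressors on up to 10 days and were called resilient (Res) or susceptible (Sus) by a social interaction test, and undefeated mice were controls (Con). Each library pooled 2 mice and was made from 6 tissue punches of the NAc. There were 13 D1-IPs (4 from Con, 4 from Res and 5 from Sus mice), 15 D2-IPs with 5 in each stress state, and 18 inputs with 3 for each stress state and line. A second table holds 4 undefeated D1-IPs whose labels read Sirt1-KO, from mice that carry the RT allele, floxed Sirt1 and D1-Cre and whose age is not given, and repeats the 4 D1 Con libraries. Counts on genes ran from 21591075 to 31009626 per IP, from 18384265 to 28179940 per input and from 22174187 to 31785984 per library labelled Sirt1-KO. Intervals and spreads given below cover counting error and the spread between these pools of mice.

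Nicotinic receptors are ion channels of 5 subunits that open when acetylcholine binds, and in the NAc the acetylcholine comes mainly from cholinergic interneurons. Receptors that join the products of Chrna4 and Chrnb2 bind nicotine with high affinity and are the most widespread kind in the brain, and the product of Chrna5 can take the accessory place in such a receptor without forming a binding site. The product of Chrna7 forms receptors by itself that pass much calcium. Chrna6 and Chrnb3 are known for receptors on the terminals of midbrain dopamine neurons, and Chrna3 and Chrnb4 for those of autonomic ganglia and the medial habenula. In the striatum nicotinic receptors are best known on dopamine terminals, on incoming glutamatergic axons and on interneurons.

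The members lie on 5 chromosomes in the mouse assembly GRCm38 (mm10) with GENCODE vM21 gene models. Chrna5 (chr9:54980880-55007779, plus strand), Chrna3 (chr9:55010111-55026562, minus strand) and Chrnb4 (chr9:55028154-55048779, minus strand) form 1 cluster, with gaps of 2331 and 1591 bp between neighbours. Chrnb3 (chr8:27368711-27399730, plus strand) and Chrna6 (chr8:27403212-27413944, minus strand) lie 3481 bp apart. Chrna4 (chr2:181018380-181043546), Chrna7 (chr7:63098692-63212569) and Chrnb2 (chr3:89746195-89764632) stand alone on the minus strand. Of the 8380 exonic bp of Chrnb2, 1365 are shared with the gene Adar on the opposite strand, and how the authors' counting used the strand is not given in the sources used here. Adar itself, an RNA editing enzyme, had a log2 difference of 0.60 between D1-IP and D1-input, so the part of those reads in the Chrnb2 counts was not tested. The other 7 members share no exonic sequence with another gene model.

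Promoters of 6 of the 8 members were found in RefSeq (GRCm38.p6), 7 in all because Chrna5 has 2 annotated starts, and each covers 250 bases before to 50 after the start. The 3 members with the highest level per length and both starts of Chrna5, the member that differed most between the lines, are shown 5′ to 3′ on the strand of the gene, with the GC box (the letters GGGCGG on either strand) in capitals. They lie at chr3:89764583-89764882 (minus strand) for Chrnb2, chr2:181039128-181039427 (minus strand) for Chrna4, chr7:63212477-63212776 (minus strand) for Chrna7, and chr9:54980630-54980929 and chr9:54981238-54981537 (both plus strand) for the first and the second start of Chrna5.
Chrnb2: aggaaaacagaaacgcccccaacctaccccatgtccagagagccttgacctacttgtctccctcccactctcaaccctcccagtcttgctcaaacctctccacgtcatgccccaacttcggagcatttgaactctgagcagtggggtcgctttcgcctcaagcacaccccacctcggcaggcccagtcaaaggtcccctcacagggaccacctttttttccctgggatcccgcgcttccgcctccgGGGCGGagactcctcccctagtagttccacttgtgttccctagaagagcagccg
Chrna4: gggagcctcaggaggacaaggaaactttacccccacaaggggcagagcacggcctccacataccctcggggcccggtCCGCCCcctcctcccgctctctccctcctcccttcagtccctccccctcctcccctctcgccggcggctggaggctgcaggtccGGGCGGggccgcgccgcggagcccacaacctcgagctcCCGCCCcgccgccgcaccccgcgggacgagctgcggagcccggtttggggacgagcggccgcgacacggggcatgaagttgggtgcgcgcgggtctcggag
Chrna7: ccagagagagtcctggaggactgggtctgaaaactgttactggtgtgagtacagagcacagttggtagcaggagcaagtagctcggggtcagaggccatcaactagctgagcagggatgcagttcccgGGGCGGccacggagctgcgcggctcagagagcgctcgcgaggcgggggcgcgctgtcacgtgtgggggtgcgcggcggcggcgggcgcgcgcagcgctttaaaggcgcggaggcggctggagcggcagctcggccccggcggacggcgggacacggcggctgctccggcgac
Chrna5, first start: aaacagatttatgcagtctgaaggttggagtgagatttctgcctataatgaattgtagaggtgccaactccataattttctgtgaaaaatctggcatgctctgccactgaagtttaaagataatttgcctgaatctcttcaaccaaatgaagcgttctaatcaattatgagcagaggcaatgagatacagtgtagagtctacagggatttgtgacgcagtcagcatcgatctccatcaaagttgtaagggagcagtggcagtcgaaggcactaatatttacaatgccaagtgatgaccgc
Chrna5, second start: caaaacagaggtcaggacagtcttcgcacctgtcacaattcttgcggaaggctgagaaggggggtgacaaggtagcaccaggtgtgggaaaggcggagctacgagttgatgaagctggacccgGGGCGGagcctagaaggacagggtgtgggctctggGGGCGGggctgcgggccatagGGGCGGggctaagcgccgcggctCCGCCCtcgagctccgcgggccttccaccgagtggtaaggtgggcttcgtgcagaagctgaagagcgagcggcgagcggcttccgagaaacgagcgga

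The promoters of the 3 abundant members each held a GC box, 3 in Chrna4, 1 in Chrna7 and 1 in Chrnb2. The starts of Chrna5 differed from each other, with no GC box and 41.33% G and C at the first start, and 4 GC boxes and 65.0% G and C at the second. Chrna3 held 1 GC box and Chrnb4 none, with 64.33% and 63.0% G and C. Of all 32851 mouse promoters of this length, 35.658% hold a GC box, and their median content of G and C is 52.67%. None of the 7 member promoters held the letters CCAAT on either strand, which are in 37.408% of all promoters. The TATA box, searched as TATAAA, was in none of them either and is in 13.616% of all promoters. The cyclic AMP response element, searched as TGACGTCA, was likewise in none and is in 1.79% of all. None of these motifs holds another, and a match of letters is a description and not a binding site.

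Levels between genes are compared per length, as CPM (the count scaled to the library's total on genes, with TMM factors) divided by the kilobases of exon. Chrnb2 had the highest level per length in D1-IPs, 12.5 ± 0.344 CPM per kb (SD, n = 13), followed by Chrna4 at 9.06 ± 1.62 and Chrna7 at 2.77 ± 0.377. These 3 genes made up 50.4%, 36.5% and 11.1% of the summed level of the 8. The other 5 members lay far lower, from 0.246 ± 0.129 CPM per kb for Chrna5 to 0.0419 ± 0.0320 for Chrnb4. The order of the leading 3 was the same in D2-IPs, at 12.0 ± 0.652, 8.09 ± 0.896 and 2.06 ± 0.338 CPM per kb (SD, n = 15), and in inputs, at 7.67 ± 0.299, 5.83 ± 1.49 and 2.46 ± 0.366 (SD, n = 18). Chrnb2 and Chrna4 overlapped in D1-IPs through 1 library, in which Chrna4 reached 13.03 CPM per kb against a lowest value of 11.9 for Chrnb2, and did not overlap in D2-IPs. They also overlapped in inputs, where Chrna4 ranged from 3.80 to 8.98 CPM per kb and Chrnb2 from 7.22 to 8.43, and Chrna4 was above Chrnb2 in 2 of them, D1 Res replicate 3 (8.98 against 7.63) and D2 Sus replicate 3 (8.80 against 7.34). Chrna4 lay above Chrna7, and Chrna7 above Chrna5, in every library. From Chrna5 downwards the ranges of neighbours overlapped in all 3 kinds of library, so their order is not beyond the spread.

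**Figure D1:**
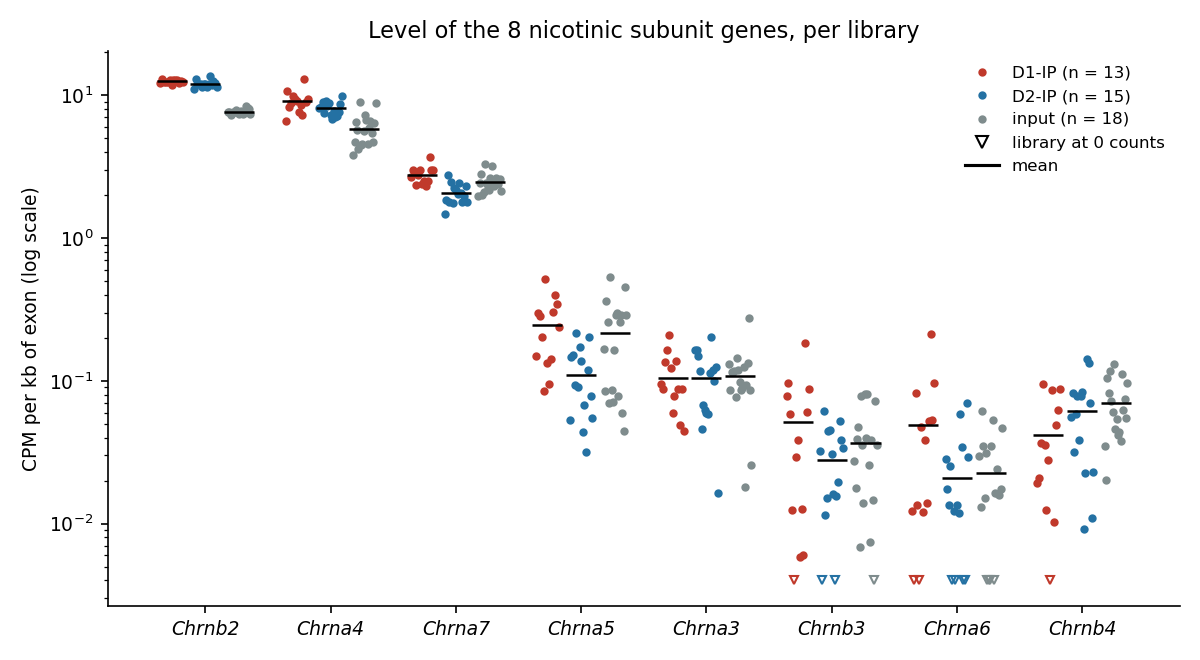
Level of each member in CPM per kb of exon (log axis) in the 13 D1-IPs, 15 D2-IPs and 18 inputs, with 1 point per library, a bar for the mean and open triangles for libraries at 0 counts. Chrnb2, Chrna4 and Chrna7 stand above the other 5 members in every library.

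The low members rest on few reads. Chrna5 had 6 to 35 counts per D1-IP and 3 to 17 per D2-IP, and Chrna3 had 5 to 25 and 2 to 32. Chrnb3, with 0 to 32 counts per D1-IP, 0 to 10 per D2-IP and 0 to 12 per input, was at most at 3 counts in 5 of the 13 D1-IPs. Chrnb4 had 0 to 9 counts per D1-IP and 1 to 16 per D2-IP. Chrna6 was the lowest, at no more than 3 counts in 8 of 13 D1-IPs, 13 of 15 D2-IPs and 17 of 18 inputs, and no fold change is given for it. Chrna6 and Chrnb4 did not pass the filter on low counts in the model of the IPs, which tested 6 members among 14224 genes. Chrnb3 passed with 4 D1-IPs and 1 D2-IP above the cutoff of 0.374 CPM, and Chrna5 with 11 D1-IPs and 6 D2-IPs. As the tissue is pooled, fewer cells of a type and less RNA per cell cannot be told apart in any of these values.

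Whether the IPs hold what their labels say was read from marker genes. The summed level of 4 D1-MSN markers (Drd1, Pdyn, Tac1, Chrm4) was 1101 to 1553 CPM in D1-IPs, 396 to 638 in D2-IPs and 449 to 704 in inputs. That of 4 D2-MSN markers (Drd2, Adora2a, Gpr6, Penk) was 2061 to 3471 CPM in D1-IPs, 5647 to 7999 in D2-IPs and 776 to 1324 in inputs. Every D1-IP thus lay above every input in the D2-MSN markers too. Penk, Adora2a and Gpr6 were called higher in D1-IPs than in D1-inputs, by 1.43, 0.91 and 0.88 on the log2 scale. Drd2, at 0.33, stayed below the fold. Astrocyte, oligodendrocyte and microglia markers summed to at most 95.8, 786 and 20.2 CPM in IPs and to at least 791, 3465 and 202 CPM in inputs. Cholinergic interneuron markers summed to 19.7 to 50.2 CPM in D1-IPs, 93.2 to 180 in D2-IPs and 63.2 to 165 in inputs. Markers of cortical and other glutamatergic neurons (7 genes, none at 0) summed to 389 to 1373 CPM in D1-IPs, 45.6 to 299.97 in D2-IPs and 116 to 1086 in inputs, so the 2 kinds of IP do not overlap in them. Between D1-IPs and D2-IPs 40.8% of all genes passed an adjusted p under 0.05. With a fold over 1.5 as well, 7.66% were called, and 4.94% were called higher in D1-IPs. Beside these shares all 6 astrocyte markers passed the adjusted p with higher values in D1-IPs (Gja1, at 0.75 on the log2 scale, past the fold too), and 4 of 6 microglia markers with lower values (P2ry12, at -0.72, past the fold too). GABAergic interneuron markers summed to 150 to 227 CPM in D1-IPs and 152 to 219 in D2-IPs, with 4 of 8 called higher and 1 lower in D1-IPs. Dopamine neuron markers were low in sum, at 13.2 to 20.4 and 13.6 to 26.5 CPM, with Foxa1 at 0 in all IPs and En1 at 0 in D1-IPs, and of the 4 tested 2 were called higher in D1-IPs (Aldh1a1 at 2.05 and Slc6a3 at 0.66) and 2 lower (Th at -0.76 and Slc18a2 at -0.94). The part of these cell types in the members' differences between the lines was not tested.

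The first comparison asked which members differ between D1-MSNs and D2-MSNs over the 3 stress states. Chrna5 was higher in D1-IPs, and Chrna7 was higher by a smaller fold, whereas Chrnb2, Chrna4, Chrna3 and Chrnb3 did not pass the test. Groups were called different at an adjusted p under 0.05 and a fold over 1.5 in edgeR's quasi-likelihood test. By this rule 1 of the 6 members tested was called, and it was higher in D1-IPs, against 7.66% of all genes in either direction and 4.94% in that direction, and 2 of 6 passed the adjusted p alone against 40.8% of all genes. The median log2 difference was 0.28 over the 6 members and -0.02 over all genes tested.

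Chrna5, the accessory subunit, was at 0.464, 0.927, 0.886 and 0.630 CPM in the D1 Con libraries, 0.266, 1.62, 0.417 and 0.298 in D1 Res, and 0.444, 0.955, 1.25, 1.08 and 0.750 in D1 Sus. In D2-IPs it was at 0.165, 0.457, 0.472, 0.292 and 0.676 CPM in Con, 0.285, 0.538, 0.430, 0.137 and 0.212 in Res, and 0.0999, 0.375, 0.633, 0.246 and 0.172 in Sus. The ranges overlap, but 7 of the 13 D1-IPs lay above all D2-IPs and 6 of the 15 D2-IPs below all D1-IPs. The means were 0.768 ± 0.402 CPM (SD, n = 13) and 0.346 ± 0.182 (SD, n = 15), a log2 difference of 1.11 (SE 0.290, 2.16-fold, edgeR adjusted p = 0.00278). It remained called without any 1 library, with log2 differences from 0.80 to 1.27. Within stress states the log2 difference was 0.82 in Con (adjusted p = 0.303), 0.98 in Res (adjusted p = 0.207) and 1.53 in Sus (SE 0.482, adjusted p = 0.026), beside 4.98%, 5.52% and 5.55% of all genes called, 3.94% of all genes being called higher in Sus. In Res it rested on 1 library, D1 Res replicate 2 at 1.62 CPM, and was 0.05 without it. In Sus the call was lost without any 1 of 5 libraries (D1 Sus replicate 3 or 4, D2 Sus replicate 1, 4 or 5, adjusted p from 0.054 to 0.0768). The stress effects on Chrna5 did not differ between the lines by the test of the interaction (adjusted p = 1 for both Sus and Res against Con, with 0% of genes called).

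Chrna7, the subunit that forms receptors alone, was at 12.0, 13.4, 12.9 and 10.5 CPM in D1 Con, 12.5, 13.6, 10.9 and 11.3 in D1 Res, and 10.4, 11.2, 16.5, 13.4 and 13.5 in D1 Sus. In D2-IPs it was at 6.62, 8.27, 12.4, 8.11 and 11.1 CPM in Con, 7.90, 10.1, 9.74, 9.16 and 10.9 in Res, and 9.26, 8.04, 8.94, 10.4 and 8.11 in Sus. In the Sus state the highest D2-IP and the lowest D1-IP both round to 10.4 CPM and the groups do not overlap, whereas in Con and Res they overlap. How many of all genes do not overlap in the Sus state was not counted. The means were 12.5 ± 1.70 CPM (SD, n = 13) and 9.27 ± 1.52 (SD, n = 15), a log2 difference of 0.41 (SE 0.0821, edgeR adjusted p = 0.00019) that is 1.33-fold and so below the fold of the rule. By stress state the log2 difference was 0.38 in Con (adjusted p = 0.078), 0.32 in Res (adjusted p = 0.126) and 0.52 in Sus (adjusted p = 0.00727). The share of all genes past the adjusted p alone within single stress states was not counted.

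Chrna4 and Chrnb2, the pair of the high-affinity receptor, did not differ between the IPs by the rule. Chrnb2 was at 99.4 to 110 CPM in D1-IPs (median 104) and 93.0 to 114 in D2-IPs (median 99.99), with a log2 difference of 0.04 (SE 0.0274, adjusted p = 0.209). Chrna4 was at 33.3 to 65.5 CPM in D1-IPs (median 45.2) and 34.2 to 49.7 in D2-IPs (median 41.2), with a log2 difference of 0.14 (SE 0.0748, adjusted p = 0.126). For both genes the ranges of the lines overlap. Chrna3 had a log2 difference of 0.02 (SE 0.255) and Chrnb3 of 0.61 (SE 0.478), with adjusted p = 0.955 and 0.324. Chrnb3 in D1-IPs had 14, 16, 11 and 2 counts in Con, 0, 4, 7 and 1 in Res, and 2, 1, 32, 10 and 12 in Sus, which shows how far single libraries set its mean. The untested Chrnb4 summed to 51 counts over the 13 D1-IPs and 86 over the 15 D2-IPs, and Chrna6 to 48 and 23.

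**Figure D2:**
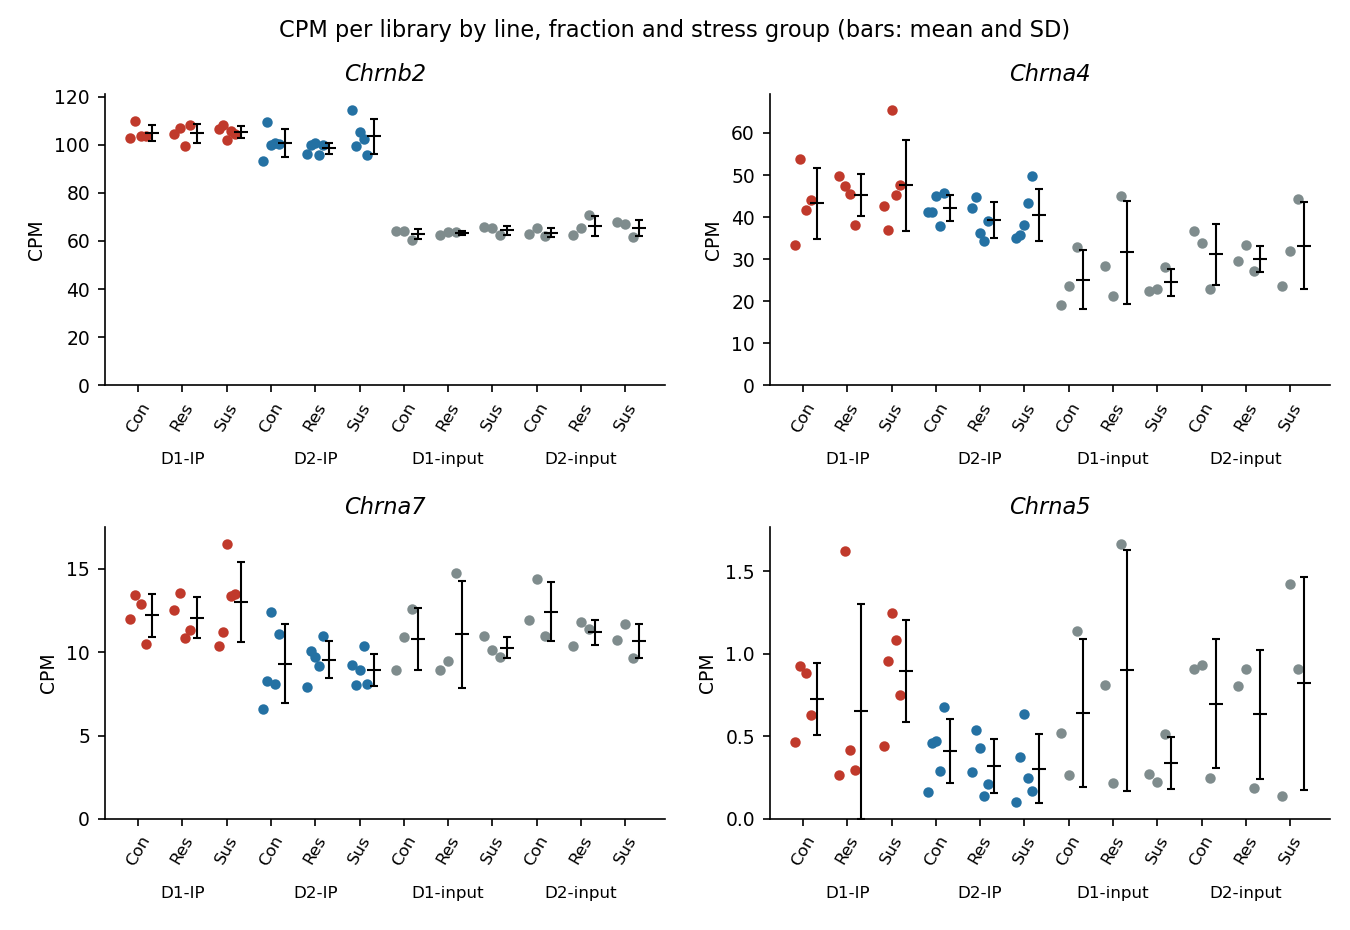
CPM per library of the 4 members with tested differences between lines or fractions, by line, fraction and stress group, with mean and SD beside the points. Chrnb2 separates IPs from inputs, with inputs at 60.5 to 70.7 CPM and IPs at 93.0 to 114, while Chrna5 and Chrna7 are higher in D1-IPs than in D2-IPs and their ranges overlap.

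The level of cortical and glutamatergic markers moved with these members. The 2 D1-IPs with the highest marker sums, D1 Sus replicate 3 at 1373 CPM and D1 Con replicate 2 at 1067 CPM, also had the highest levels of Chrna4, 65.5 and 53.7 CPM. D1 Sus replicate 3 had the highest Chrna7 of the IPs, 16.5 CPM, and the input with the highest sum (D1 Res replicate 3, 1086 CPM) had the highest Chrna5 and Chrna7 of the inputs, 1.67 and 14.8 CPM. Chrnb2 showed no such order, at 102 and 110 CPM in those 2 D1-IPs. An alternative chosen after seeing the data left out these 2 D1-IPs, and Chrna5 remained called (log2 difference 1.02, adjusted p = 0.011), with 0.36 for Chrna7 (adjusted p = 0.000885). Another alternative chosen after seeing the data added the log2 marker sum as a covariate, which gave -0.45 (SE 0.520, adjusted p = 0.634) for Chrna5, 0.24 (SE 0.156, adjusted p = 0.35) for Chrna7 and -0.28 (SE 0.113, adjusted p = 0.0928) for Chrna4. As the marker sums of D1-IPs and D2-IPs do not overlap, line and marker level cannot be told apart in these differences.

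**Figure D3:**
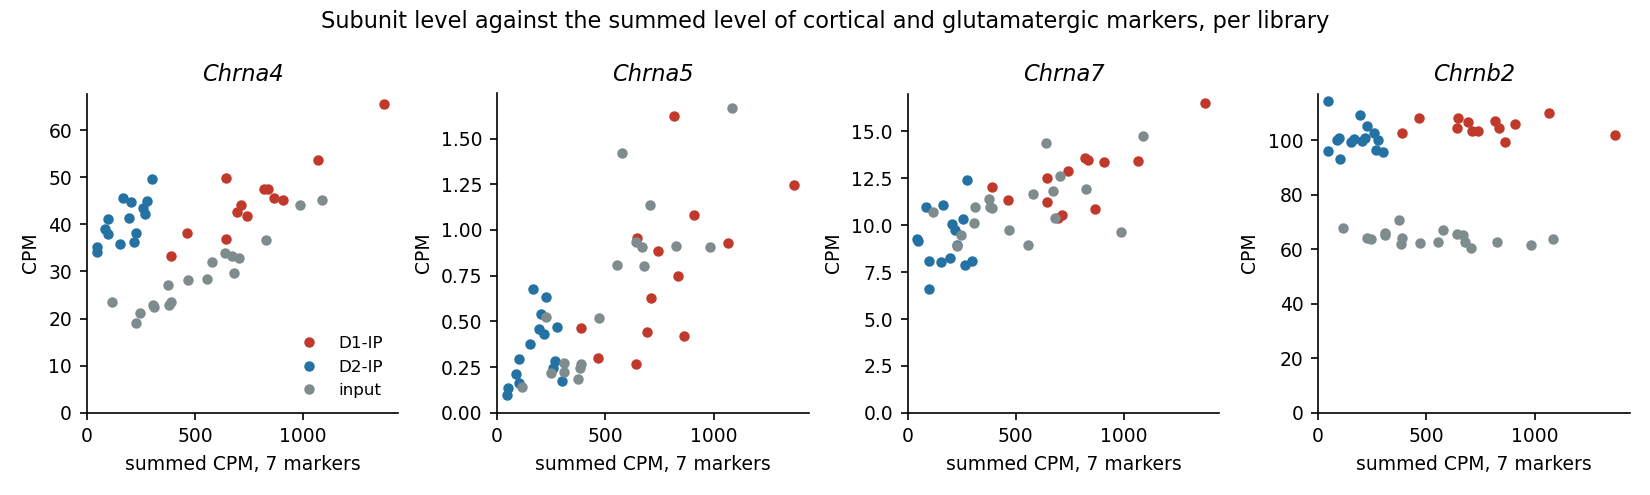
CPM of Chrna4, Chrna5, Chrna7 and Chrnb2 against the summed CPM of 7 cortical and glutamatergic marker genes, with 1 point per library. The D1-IPs reach from 389 to 1373 CPM of markers and the D2-IPs from 45.6 to 299.97, and in the first table the library with the most markers has the most Chrna4 and Chrna7.

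**Figure D4:**
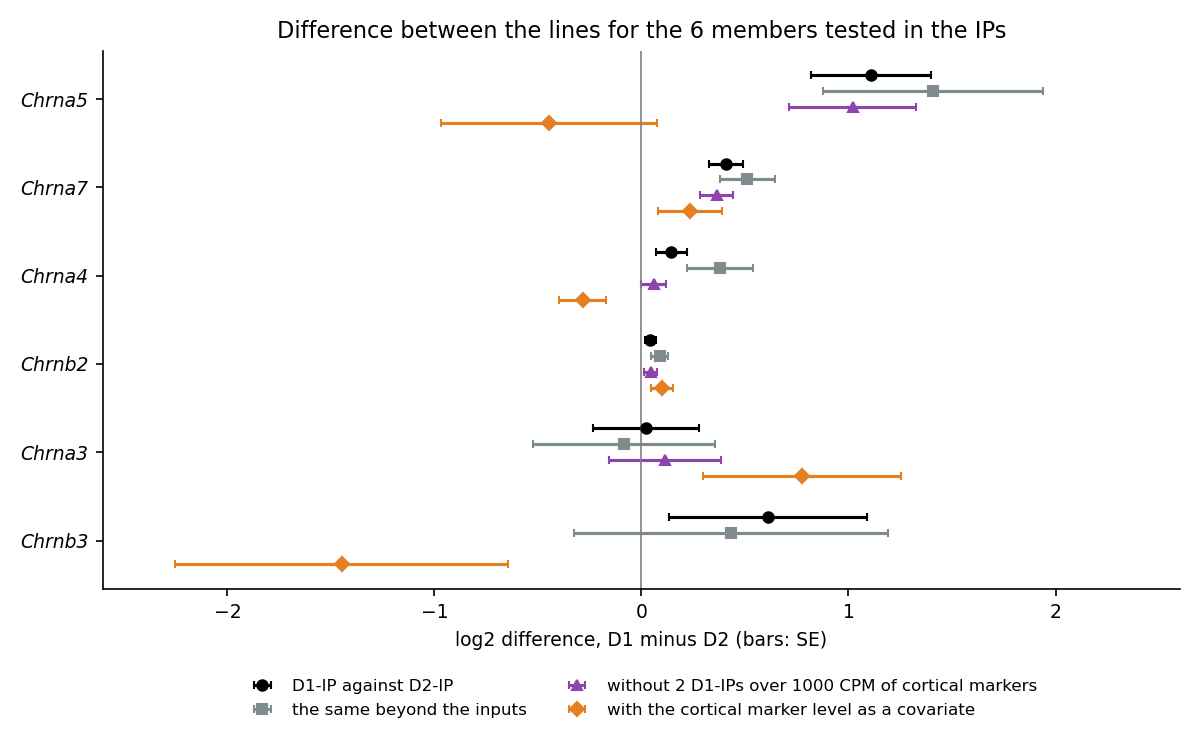
Log2 difference between the lines, D1 minus D2, with SE, for the 6 members tested in the IPs under 4 fits. Chrna5 lies at 1.11, at 1.41 beyond the inputs, at 1.02 without 2 D1-IPs and at -0.45 with the marker covariate, and Chrnb3 could not be tested without the 2 D1-IPs.

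IPs were then compared with inputs to ask which members are more abundant on the ribosomes of tagged cells than in the whole tissue. In D1-IPs 2 members were higher (Chrnb2, Chrna4) and 1 lower (Chrnb4) of 7 tested, against 43.1% of all genes called, 13.8% higher and 29.3% lower. Chrnb4 passed the filter on low counts in this model through libraries other than the D1-IPs. In the model of the IPs alone 0 of 13 D1-IPs lay above the cutoff of 0.374 CPM for it. Its call therefore gives no support for a difference. By the adjusted p alone 4 of 7 passed, against 81.9% of all genes. In D2-IPs 1 was higher (Chrnb2) and 1 lower (Chrna5) of 7 tested, against 43.6% of all genes called, 12.8% higher and 30.8% lower. By the adjusted p alone 4 of 7 passed, against 82.7% of all genes. The median log2 difference of the 7 members was 0.21 in D1 and -0.09 in D2, beside -0.04 and -0.08 over all genes.

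How many of all genes have IPs and inputs without overlap was not counted. Chrnb2 was such a gene, in both lines. It was at 99.4 to 110 CPM in D1-IPs against 60.5 to 65.8 in D1-inputs, a log2 difference of 0.72 (SE 0.0300, edgeR adjusted p = 3.8e-24). In D2 it was at 93.0 to 114 CPM against 61.5 to 70.7, a log2 difference of 0.63 (SE 0.0293, adjusted p = 1.26e-22). Chrna4 was at 19.1 to 45.1 CPM in D1-inputs (median 23.5) and 22.8 to 44.2 in D2-inputs (median 31.99), and was higher in D1-IPs by 0.75 (SE 0.117, adjusted p = 2.33e-07) and in D2-IPs by 0.37 (SE 0.113, adjusted p = 0.00291, below the fold of the rule). With the marker covariate the value in D1 was 0.55, below the fold of the rule, and in D2 0.86, past it. Chrna7, at 8.92 to 14.8 CPM in D1-inputs and 9.65 to 14.4 in D2-inputs, differed by 0.21 in D1 (adjusted p = 0.0398) and by -0.30 in D2 (adjusted p = 0.00325), both below the fold of the rule.

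Chrna5 was at 0.219 to 1.67 CPM in D1-inputs (median 0.516) and 0.139 to 1.42 in D2-inputs (median 0.906). In D1 the IPs and inputs did not differ by the test (log2 difference 0.36, SE 0.375, adjusted p = 0.38), and in D2 the IPs were lower by 1.05 on the log2 scale (log2 difference -1.05, SE 0.376, adjusted p = 0.0102), with overlapping ranges. With the pool of mice as a block, since IP and input come from the same homogenate, in the 36 libraries of pools that have both, the value in D2 was -0.77 (adjusted p = 0.106). With those 36 libraries and no block it was -0.87 (adjusted p = 0.0753), so the call was lost with the libraries before the block was added. With the marker covariate the value turned to 0.60 (adjusted p = 0.162). The call was also lost in controls alone (-0.72, adjusted p = 0.212) and without D2 Sus input replicate 2 (-0.80, adjusted p = 0.0607). Chrnb4, a partner of Chrna3 in ganglia, had 51 counts over 13 D1-IPs and 58 over 9 D1-inputs, a log2 difference of -0.99 (SE 0.408, adjusted p = 0.0246). This call was lost without any 1 of 4 libraries, D1 Res replicate 4 (-0.84, adjusted p = 0.0537) and, among inputs, D1 Con replicate 3 (-0.66, adjusted p = 0.181), D1 Res replicate 2 (-0.90, adjusted p = 0.0537) and D1 Sus replicate 2 (-0.79, adjusted p = 0.0899), and without the 3 libraries over 1000 CPM of cortical markers (-0.93, adjusted p = 0.0509). In D2-IPs Chrnb4 had 86 counts over 15 libraries against 49 over 9 inputs, a log2 difference of -0.09 (SE 0.381). Chrna3 and Chrnb3 had log2 differences of -0.09 and 0.20 in D1 and of -0.004 and -0.23 in D2, with SE from 0.292 to 0.542, and did not pass the test.

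Whether the lines differ in the whole tissue was read from the inputs. No member was called between D1-input and D2-input, in which 0.0202% of all genes were called, and the log2 differences of the 5 members tested ran from -0.22 for Chrna4 and Chrna5 to 0.11 for Chrna3. The difference between the lines in IPs beyond that in inputs passed an adjusted p under 0.05 for Chrna5 (1.41, SE 0.532, adjusted p = 0.046) and Chrna7 (0.51, SE 0.133, adjusted p = 0.00346) of 7 members tested, beside 25.5% of all genes. For Chrna5 it was lost without any 1 of 29 libraries, with adjusted p from 0.0519 to 0.113 in those fits, and over all libraries left out the value ranged from 1.10 to 1.67. With the marker covariate it turned to -0.87 (adjusted p = 0.297), and that of Chrna7 was 0.29 (adjusted p = 0.249). For Chrna7 it ranged from 0.44 to 0.59 over the libraries left out. The value for Chrna4 was 0.38 (adjusted p = 0.0766) and that for Chrnb2 0.09 (adjusted p = 0.11).

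Stress states were compared within each line at an unadjusted p under 0.05, as the study did, with the adjusted p beside it. No member passed an adjusted p in any of these comparisons, in which 0.00703% of all genes passed for D1 Res against Con and 0% elsewhere, and at the unadjusted p 1 member passed in 1 of the 6 comparisons of IPs. This was Chrnb3 in D1-IPs, higher in Sus than in Res by 1.87 on the log2 scale (SE 0.824, edgeR adjusted p = 0.999), beside 4.23% of all genes in either direction and 1.93% in that one. It rests on 0, 4, 7 and 1 counts in Res and 2, 1, 32, 10 and 12 in Sus, which overlap, and Chrnb3 passed the filter on low counts through libraries that include none of D1 Res. It no longer passed without D1 Res replicate 1 (1.51) or D1 Res replicate 4 (1.57). Chrna5 passed only without D1 Res replicate 2, at -1.12 between Res and Con and 1.43 between Sus and Res in D1-IPs. The share of all genes past the unadjusted p was 5.34% for Sus against Con and 2.11% for Res against Con in D1, and 3.68%, 3.02% and 1.66% for Sus against Con, Res against Con and Sus against Res in D2.

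The abundant members gave the narrowest limits on a stress effect. Chrnb2 had log2 differences between -0.03 and 0.07 in the 6 comparisons of IPs, with SE from 0.0456 to 0.0509. Chrna4 was at 33.3, 53.7, 41.8 and 44.1 CPM in D1 Con, 49.8, 47.4, 45.5 and 38.2 in D1 Res, and 42.6, 36.8, 65.5, 45.2 and 47.6 in D1 Sus, with a log2 difference of 0.14 (SE 0.132) between Sus and Con. In D2-IPs it was at 41.2, 41.3, 44.9, 37.9 and 45.6 CPM in Con, 42.2, 44.7, 36.3, 34.2 and 39.0 in Res, and 35.1, 35.8, 38.2, 43.5 and 49.7 in Sus, with a log2 difference of -0.06 (SE 0.125) between Sus and Con. The stress states overlap in every one of these sets. Chrna7 lay between -0.09 and 0.11 with SE from 0.138 to 0.151. Chrna5 had log2 differences from -0.41 to 0.50 and Chrna3 from -0.83 to 0.66, with SE from 0.415 to 0.536. The largest value of Chrna3, -0.83 between D2 Res and D2 Con, did not pass the unadjusted p and came from 10, 8, 8, 9 and 14 counts in Res and 21, 17, 20, 17 and 5 in Con. It passed without D2 Con replicate 5 (-1.04), D2 Res replicate 5 (-1.04) or D2 Sus replicate 5 (-0.84). In the inputs none of the 5 members tested passed an unadjusted p between stress states, beside 4.47%, 3.23% and 5.54% of all genes for Sus against Con, Res against Con and Sus against Res.

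In the table with the libraries labelled Sirt1-KO, Sirt1 itself did not separate the groups. It was at 13.7 ± 2.64 CPM in the libraries labelled Sirt1-KO and 14.7 ± 1.46 in D1 Con (SD, n = 4 each), a log2 difference of -0.10 (adjusted p = 0.768). Counts sum over the whole gene, so they do not check a deletion of some of its exons, and the labels could not be checked from the knocked-out gene. When the libraries were made is not given for each sample, so the genotype and the set of libraries cannot be told apart in any of these differences. The D1-MSN marker sum was 896 to 1122 CPM in the libraries labelled Sirt1-KO and 1192 to 1469 in D1 Con. CPM of D1 Con differ slightly here from those above because they are scaled within this table. No member was called, against 0.749% of all genes, and 0 of 6 tested passed the adjusted p alone, against 1.66% of all genes. Chrna4 and Chrna3 passed an unadjusted p under 0.05, for which the share of all genes was not counted.

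Chrna4 was at 55.5, 56.8, 61.8 and 49.8 CPM in the libraries labelled Sirt1-KO and at 31.5, 50.9, 39.6 and 42.0 in D1 Con, so that 3 of the 4 lay above all D1 Con libraries. The log2 difference was 0.45 (SE 0.122, edgeR adjusted p = 0.085). The cortical and glutamatergic marker sum moved with it, at 825 to 1530 CPM against 368 to 1011, and with that sum as a covariate the log2 difference was 0.08 (adjusted p = 0.732). With only the 6 libraries whose numbers both groups share, which leaves out the library labelled Sirt1-KO with the lowest marker sum (825 CPM) and the D1 Con library with the highest (1011 CPM), Chrna4 was called at 0.62 without a block (edgeR adjusted p = 0.00535), an alternative chosen after seeing the data. Chrna3 was at 0.351, 0.226, 0.349 and 0.326 CPM against 0.472, 0.439, 0.678 and 0.825, with every library labelled Sirt1-KO below every D1 Con library. These are 7 to 11 against 12 to 22 counts, and the log2 difference was -0.94 (SE 0.347, edgeR adjusted p = 0.188). How many of all genes separate these groups was not counted. The cholinergic marker sum went the same way with overlap, at 11.9 to 19.9 CPM in the libraries labelled Sirt1-KO and 19.7 to 24.4 in D1 Con. Its part in the difference of Chrna3 was not tested. Chrnb2 had a log2 difference of -0.03 (SE 0.0551), Chrna7 of 0.06 (SE 0.109), Chrna5 of 0.32 (SE 0.334) and Chrnb3 of 0.12 (SE 0.497). Chrnb4, untested, had 4, 3, 6 and 8 counts against 2, 2, 4 and 9, and Chrna6 had 4, 0, 2 and 5 against 1, 0, 7 and 1, so both overlap.

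**Figure D5:**
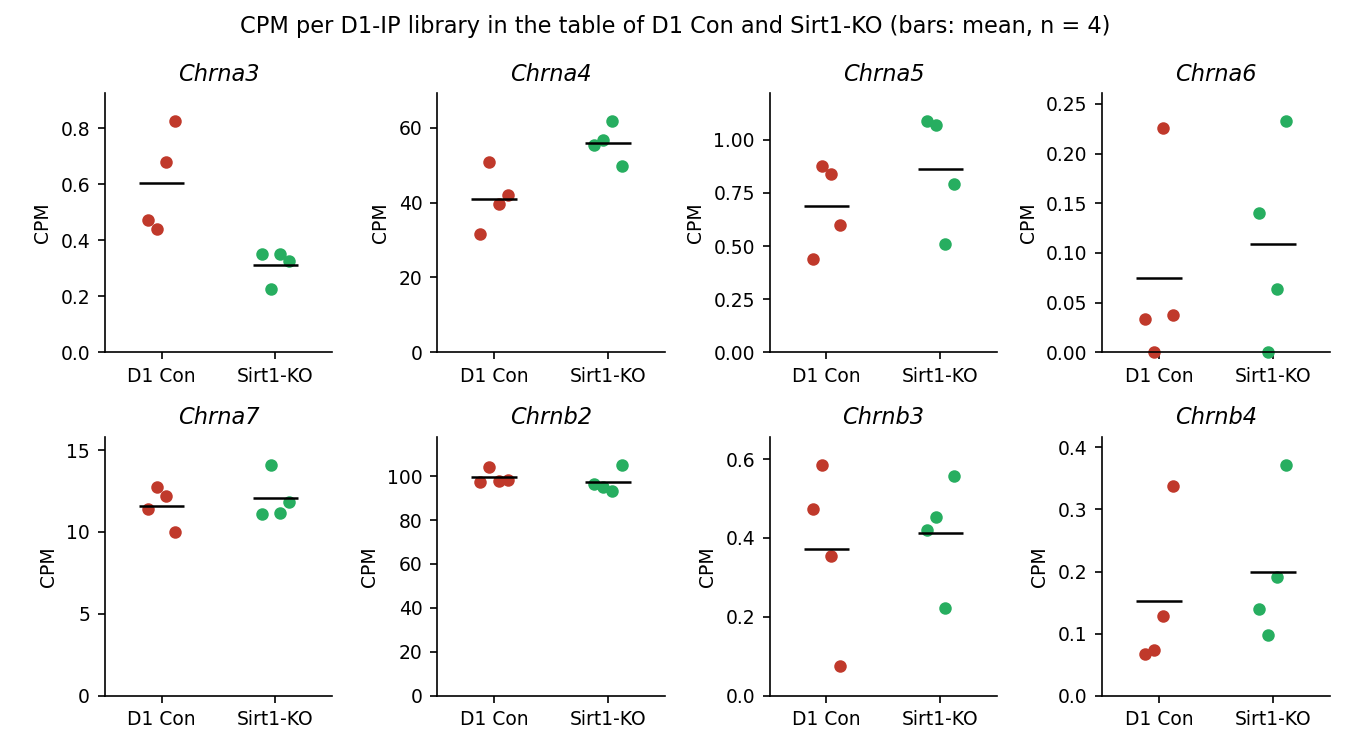
CPM of each member in the 4 D1 Con libraries and the 4 libraries labelled Sirt1-KO of the second table, with a bar for the mean. Chrna3 is lower in all 4 libraries labelled Sirt1-KO and Chrna4 is higher in 3 of them, and neither passed the adjusted p, while the groups overlap for the other 6 members.

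Genes related to these subunits, most of them by function, were read from 3 lists. Of 8 other nicotinic subunit genes, mostly of muscle and sensory cells, 2 were tested between D1-IP and D2-IP and 1 was called, beside 7.66% of all genes. It was Chrna10, lower in D1 by 0.92 on the log2 scale (log2 difference -0.92, adjusted p = 0.00688). Chrna10 had means of 0.263 CPM in D1-IPs and 0.498 in D2-IPs and shares 1025 exonic bp with Art1 on the opposite strand. It had 3 to 15 counts per D1-IP and 4 to 21 per D2-IP. Chrna10 passed the filter on low counts through D2-IPs, the group in which it was higher. Of the D1-IPs only D1 Res replicate 4, at 0.559 CPM, lay above the cutoff of 0.374 CPM. The call therefore gives no support for a difference between the lines. Chrna2, the other one tested, had a log2 difference of 0.04 (adjusted p = 0.941). The median of the 2 tested between the lines was -0.44. Chrnb1, the muscle beta subunit, was lower in IPs than in inputs in both lines, by -3.83 in D1 and -1.94 in D2. Beside it 29.3% and 30.8% of all genes were called lower. Chrnb1 was not tested in the model of the IPs and had few reads in D1-IPs. In D1 Con replicate 2 the 8 genes summed to 2.28 CPM, of which Chrna2 held 1.97 and Chrna10 0.271. The size of its difference is therefore uncertain.

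A list of 12 genes held mostly those for proteins that assemble, guide or dampen nicotinic receptors. Of these 12 genes 9 were tested between the lines and 3 were called higher in D1-IPs, beside 7.66% of all genes called and 4.94% called higher, with a median log2 difference of 0.12. They were Lypd6 (0.93, adjusted p = 3.58e-07), Lypd6b (0.73, adjusted p = 1.24e-07) and Ly6e (0.64, adjusted p = 5.85e-10), which belong to the family of membrane-anchored proteins with the fold of snake toxins. Lypd6 was nevertheless lower in IPs than in inputs in both lines, by -1.08 in D1 and -2.04 in D2. Tmem35a, which encodes the assembly factor NACHO, was higher in IPs in both lines, with log2 differences of 0.84 and 0.66, and Nptn with 0.88 and 0.92. Both were named because they were called between IP and input, beside 13.8% of all genes called higher in D1 and 12.8% in D2.

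Of 10 genes that make, move or break down acetylcholine, 9 were tested between D1-IP and D2-IP and 4 were called lower in D1, beside 7.66% of all genes called in either direction, with a median of -0.51. Chat, the enzyme that makes acetylcholine, had means of 2.42 CPM in D1-IPs, 23.9 in D2-IPs and 15.01 in inputs, a log2 difference between the IPs of -3.35 (adjusted p = 4.51e-16). Slc18a3 and Slc5a7, the transporters that load vesicles and take up choline, differed by -3.88 and -3.28, and Prima1, the membrane anchor of acetylcholinesterase, by -1.04. The cholinergic marker sums given above, which hold 3 of these genes, moved with them, and 5 of the 8 cholinergic markers were called lower in D1-IPs. The part of tagged cholinergic interneurons in the members' levels was not tested.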

How the data were processed

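The authors deposited a whole-number read count per gene symbol and library, made, per the submitters' processing notes and the study's methods, with cutadapt, FastQC, STAR on mm10 and HTSeq from poly-A selected, stranded libraries. Versions, annotation and the strand setting of the counting are not given in the sources used here. The counts are not normalized. Both tables hold 24552 genes. A further 5 entries without a gene name, with 18.02% to 39.99% of the reads of a library in the first table, were left out. The table with Sirt1-KO holds the same counts for the 4 D1 Con libraries as the first and lists 5 symbols 2 times, which were taken once. Replicates differed beyond sampling noise (chi-square per gene from 3.51 to 98.7 over 76 pairs). The 2 columns named D1 Con 5 and D1 Res 5 have no sample description and were left out.

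Counts were tested with edgeR 4.0.16 in R 4.3.3 (TMM, filterByExpr at 10 counts per library and 15 in total, quasi-likelihood test, Benjamini-Hochberg adjustment over all genes tested). The models held the 28 IPs (14224 genes, a mean for each group of line and stress), all 46 IPs and inputs (15404 genes), the 18 inputs (14820 genes, stress with line) and the 8 libraries of the Sirt1-KO table (13626 genes). Standard errors follow from the F statistic. Differences were called at an adjusted p under 0.05 and a fold over 1.5, between stress states at an unadjusted p under 0.05, and for interactions and the difference beyond inputs at an adjusted p under 0.05. The fits were tested on simulated counts.

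The members and lists were chosen with earlier results of these data known. Named are all 8 members, genes of the lists of other nicotinic subunits, accessory proteins, acetylcholine handling and cell type markers that were called between the lines or between IP and input (at most 5 per list), Chrna2, Chat and Sirt1, and the 3 genes most like each member above 1 CPM. Adar and Art1 were named after their overlap was seen. Alternatives were a model of all genes with a count, size factors by RLE, DESeq2 1.42.0, models of only the libraries compared, controls only, inputs and IPs in 1 model, a block, each library left out, and, chosen after seeing the data, a cortical marker covariate the loss of libraries over 1000 CPM of these markers, and the libraries of the block fits without the block. IP and input of the same pool are paired by protocol (correlation of their deviations from group means from -0.193 to 0.506, n = 18 pairs). Across groups the samples share only a number.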

Additional observations from a re-analysis of the deposited data

Results flagged for a closer look

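In groups of 4 or 5 libraries, 5 of 56 sets of a member and a group held a library far from the others by Dixon's test, which chance does in about 1 in 20 groups. Chrna5 was at 1.62 CPM in D1 Res replicate 2, above the other 3 libraries of that group. Chrna3 was at 0.594 CPM in D2 Res replicate 5, above its group. Chrnb2 was at 110 CPM in D1 Con replicate 2, the library with the second highest cortical marker sum of the D1-IPs. Chrna6 stood apart with 0.238 CPM in D1 Con replicate 3 and 0.170 CPM in D2 Res replicate 5, which are 7 and 4 counts.

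In 2 of 7 members tested the difference between the lines in IPs was unlike that in inputs by the test of the interaction, beside 25.5% of all genes. The log2 difference beyond inputs was 1.41 for Chrna5 (edgeR adjusted p = 0.046) and 0.51 for Chrna7 (edgeR adjusted p = 0.00346). With the cortical marker sum as a covariate, chosen after seeing the data, these were -0.87 and 0.29. The call of Chrna5 was lost when any of many single libraries was left out, as given above.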

How the results depend on the processing

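Depth limits Chrna3, Chrna5, Chrna6, Chrnb3 and Chrnb4, whose counts per library were at most 37. In the IPs the line cannot be told apart from the cortical marker level. Of the single-gene values, 995 kept their side of the threshold under the alternatives, 18 gained it, 14 lost it and 5 reversed. Of the 995, 99 were uncalled in both fits and had the other sign.

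With the cortical marker covariate Chrna5 turned to -0.45 between D1-IP and D2-IP, -0.084 in the Sus state, 0.60 between D2-IP and D2-input and -0.87 beyond inputs, and Chrnb3 turned to 1.48 between D2-IP and D2-input (adjusted p = 0.0263). The number of members called under it was 0 in place of 1 between D1-IP and D2-IP and in the Sus state, 4 in place of 2 between D2-IP and D2-input, 1 in place of 2 beyond inputs, 1 in place of 0 for D1 Res against Con and for D2 Res against Con, and 0 in place of 1 for D1 Sus against Res. Without libraries over 1000 CPM of these markers it was 0 in the Sus state and 0 for D1 Sus against Res, where Chrnb3 was then not tested. With a block it was 1 for D1 Res against Con. It was 1 between D2-IP and D2-input and 1 for Sirt1-KO against D1 Con both with a block (pool of mice or number, 36 of 46 and 6 of 8 libraries) and with those libraries and no block, where Chrna4 was at 0.62 with the block (adjusted p = 0.000165) and 0.62 without it (adjusted p = 0.00535). The block changed no other number of members called by over 1.5 times. With controls only it was 1 between D2-IP and D2-input, with all genes 1 beyond inputs, and with only the libraries compared 0 for D1 Sus against Res (Chrnb3 not tested) and 1 for D2 Res against Con. The cause was not tested.

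Leaving out 1 library gave 0 to 2 members in the Sus state and for D1 Sus against Res, 1 to 2 between D2-IP and D2-input, 1 to 3 beyond inputs, 0 to 1 for D1 Res against Con and D2 Res against Con, and 0 to 2 for D2 Sus against Res.

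Counts over all genes moved by over 1.5 times for Sirt1-KO (102 genes, 170 with all genes, 223 with DESeq2, 603 with a block and 485 with the libraries of that fit and no block, 27 with the covariate), D1 Res against Con (300 to 478 with all genes), D2 Sus against Res (236 to 447 with all genes), D2 Res against Con (430 to 690 with a block), input Res against Con (478 to 280 with inputs and IPs in 1 model), input Sus against Con (663 to 1447 without libraries over 1000 CPM of markers) and the lines in inputs (3 to 9 with DESeq2). The loss of libraries by marker level was not run for Sirt1-KO. A model of only the libraries compared is the model itself for D1-IP against D2-IP.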

Other observations

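The genes whose log2 CPM followed each abundant member most closely over the 28 IPs were ranked by Pearson's r. For Chrna7 they were Pde1a (r = 0.8822), Nol3 (0.8404) and Tbc1d24 (0.8367). For Chrna4 they were Trib1 (r = 0.7955), Rapgefl1 (0.7795) and Hes1 (0.7793), and for Chrnb2 they were Lpin2 (r = 0.7528), Hykk (0.6876) and Snx30 (0.6765). The 28 libraries hold both lines and share depth and marker levels, so that these values describe the libraries.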
